A study of Homo sapiens with 73 samples.

Results

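The 8 genes described here encode ligands of the activin and TGF-beta branch of signalling and the feedback regulators that answer it. They were chosen by symbol (INHBA, INHBB, TGFB1, TGFB2, TGFB3, FST, SMAD7 and SKIL), all 8 were found among the 36233 genes of the table, and 6 of them had a mean of at least 10 and entered the tests. INHBB and FST lay below that level and are given as values. The genes were followed in CHLA-9, an established Ewing sarcoma cell line with the EWSR1-FLI1 fusion, by RNA sequencing of 73 libraries from an evolution experiment in culture. In the treated arm, lineages R1 to R7 (49 libraries) met VDC (vincristine, doxorubicin and cyclophosphamide) at odd time points and EC (etoposide and cyclophosphamide) at even ones, each for 5 days at the EC70, the concentration giving 70% effect, and RNA was taken after regrowth without drug. In the control arm, lineages R8 to R10 (23 libraries) received the solvent DMSO, and 1 library came from the untreated parental line. All groups share the same line, so the lineages are parallel cultures of 1 tumour and not separate tumours.

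Activins and TGF-betas are secreted dimers that bind pairs of serine/threonine kinase receptors, which phosphorylate SMAD2 and SMAD3. INHBA and INHBB encode the subunits of activin A and activin B, TGFB1, TGFB2 and TGFB3 encode the TGF-beta isoforms, and FST encodes follistatin, which traps activin outside the cell. SMAD7, an inhibitory SMAD that acts at the receptors, and SKIL (SnoN), a nuclear corepressor of SMAD complexes, are both induced by the pathway and damp it. In mesenchymal tumours the pathway is known for matrix production and for its links to cell plasticity.

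Values are quantile-normalized counts, called normalized values below, and differences and slopes are on the log2(value + 1) scale, which understates changes of genes at low values. The depth of each library is unknown, because the columns were scaled to a common sum within each arm (13583520 for treated columns, 13582508 for the others). Between 3 and 7 treated lineages were sequenced at each time point from 3 to 10, 6 at time point 1 and none at time point 2. DMSO lineages numbered 1 to 3 at each time point except time point 3, which had none. Of the Ewing sarcoma markers, PRKCB (8512 to 17789), NR0B1 (840 to 5544) and LIPI (677 to 3763) were present in every library, whereas NKX2-2 had a median of 26.6. CD99, a defining surface marker of the tumour, did not exceed 2.31 anywhere. The reason was not tested, and this value is not read as absence of CD99 RNA from the cells. The epithelial markers EPCAM, CDH1 and KRT19 did not exceed 8.96 and the blood cell markers CD3E, CD68 and LYZ did not exceed 8.46. The last libraries of 2 treated lineages, that of R1 (time point 9) and that of R2 (time point 10), stood apart from the rest over all tested genes. Their root mean square log2 difference from each other was 0.442, against 0.965 to 1.62 from the other 47 treated libraries. Several results that rest on these 2 libraries are given with and without them.

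Promoter sequences are shown for the pair of TGF-beta isoforms that moved in opposite directions, for INHBA and for SKIL. They are from RefSeq on GRCh38.p14, read on the strand of the gene. Each is the longest stretch free of GENCODE v29 coding-gene exons in the bases searched before the RefSeq start (given below). For INHBA the GENCODE gene begins further upstream, so the stretch shown lies inside the annotated gene. All 8 members had at least 1 RefSeq promoter, TGFB3 had 2 and SMAD7 had 3. Capitals mark a CAGA box (CAGACA), a short SMAD-binding motif.

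TGFB2, chr1:218345086-218345335, plus strand: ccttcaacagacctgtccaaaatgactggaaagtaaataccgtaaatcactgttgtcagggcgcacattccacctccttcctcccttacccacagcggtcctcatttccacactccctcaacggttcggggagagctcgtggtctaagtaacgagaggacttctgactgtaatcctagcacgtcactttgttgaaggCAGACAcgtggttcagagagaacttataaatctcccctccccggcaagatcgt

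TGFB3, chr14:75983012-75983261, minus strand: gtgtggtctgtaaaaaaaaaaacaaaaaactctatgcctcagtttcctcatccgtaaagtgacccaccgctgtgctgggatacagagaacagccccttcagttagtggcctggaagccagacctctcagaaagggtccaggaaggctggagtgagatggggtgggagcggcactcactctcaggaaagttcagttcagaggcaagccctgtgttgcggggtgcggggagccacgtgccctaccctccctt

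INHBA, chr7:41703109-41703340, minus strand: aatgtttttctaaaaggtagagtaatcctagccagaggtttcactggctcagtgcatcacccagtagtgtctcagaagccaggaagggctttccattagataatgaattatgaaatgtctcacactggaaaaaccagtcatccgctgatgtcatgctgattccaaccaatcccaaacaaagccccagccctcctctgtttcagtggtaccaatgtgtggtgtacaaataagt

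SKIL, chr3:170357465-170357677, plus strand: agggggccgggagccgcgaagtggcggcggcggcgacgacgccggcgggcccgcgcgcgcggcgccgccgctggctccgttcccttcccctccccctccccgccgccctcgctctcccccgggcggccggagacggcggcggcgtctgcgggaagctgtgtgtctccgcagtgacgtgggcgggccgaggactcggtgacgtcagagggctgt

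The CAGA box in TGFB2 starts 53 bases before the transcript start, and INHBA has another 27 bases after its start, beyond the stretch shown. Both strands were searched, from 250 bases before to 50 bases after each start, and CAGACA was present in 16.9% of all 35116 promoters of that length. An AP-1 site (TGANTCA) was found only in FST among the members, starting 160 bases before its RefSeq start, and in 7.71% of all promoters. Before that FST start, the longest stretch free of annotated coding-gene exons was 30 bases and ended 220 bases before the start, so the site lies outside it. At the first SMAD7 start that stretch was 0 bases, so the searched windows of these genes include annotated exons. The SMAD palindrome GTCTAGAC (0.202% of promoters) and the repeat GGAAGGAA, the kind of sequence that EWSR1-FLI1 binds (3.67% of promoters), matched none of the members. The motifs were searched separately and share no overlapping match here. The SKIL stretch was 79.8% G and C, against 50.4% in TGFB2, 54.8% in TGFB3 and 44.0% in INHBA. These matches describe letters in a window and no binding was measured.

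The members covered a wide range of levels. Per kilobase of annotated exon, the median over the 73 libraries was highest for TGFB1 (596), followed by TGFB3 (153) and SKIL (152), which did not differ beyond their spread. TGFB2 (27.8) and SMAD7 (24.1) formed the next pair and also overlapped, and INHBA (2.60) and FST (1.55) lay below them. INHBB lay lowest (0.00935), at the lowest value of its library in 41 of the 73 libraries and never above 3.53 in normalized value. TGFB1 lies on chromosome 19 (41301587 to 41353911), TGFB2 on chromosome 1 (218346235 to 218444619), TGFB3 on chromosome 14 (75958099 to 75982991), INHBA on chromosome 7 (41667168 to 41705834), SMAD7 on chromosome 18 (48919853 to 48952052) and SKIL on chromosome 3 (170357678 to 170396835), all GRCh38 with GENCODE v29. The antisense gene INHBA-AS1 overlaps INHBA, and whether strand was used in counting is not given in the sources used here. INHBA-AS1 did not exceed 2.75 in any library.

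**Figure D1:**
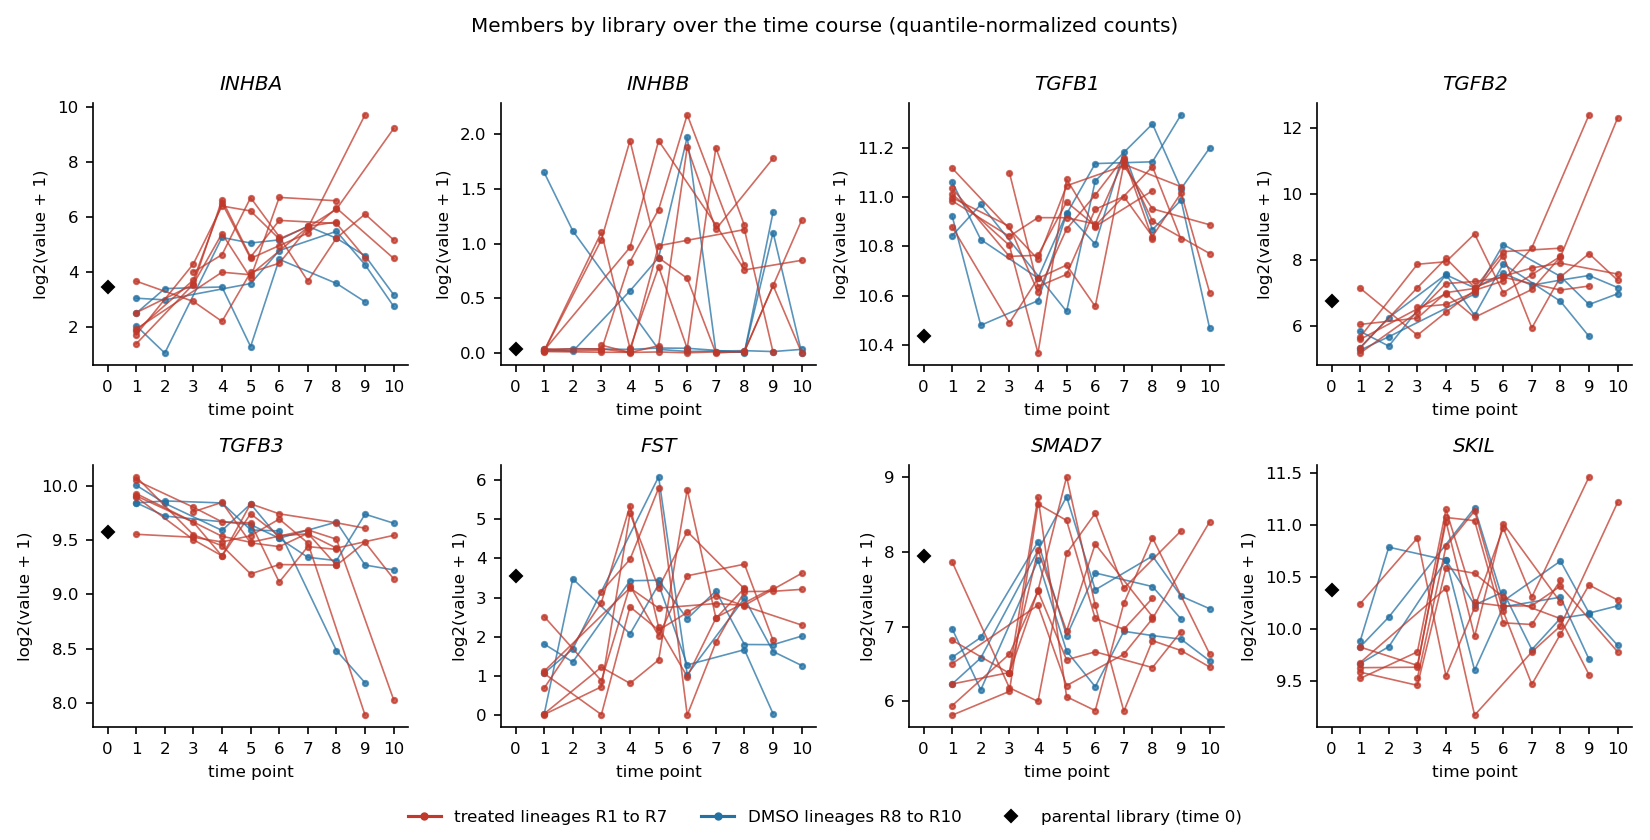
Each panel plots one member as log2 of the normalized value plus 1 (vertical axis) against the time point (horizontal axis), with a line for each treated (red) and DMSO (blue) lineage and the parental library at time 0 (diamond). The 2 late treated libraries reach 851 and 600.4 for INHBA and 5460 and 5113 for TGFB2, and they are lowest for TGFB3 (235 and 260).

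INHBA was higher in treated than in DMSO lineages, and this is the contrast that put it among the members. Adjusted for time point, the 7 treated lineages had log2 values of 4.69 to 5.12 and the 3 DMSO lineages 3.07, 3.82 and 4.01. Treated lineages averaged 4.84 ± 0.19 (SD, n = 7). DMSO lineages averaged 3.63 ± 0.50 (SD, n = 3), which makes a difference of 1.20. Because INHBA was known to separate the arms when it was chosen, no test of this contrast is given for it. In this comparison 0 of 14565 genes (0%) passed an adjusted p of 0.05 in limma with Benjamini-Hochberg adjustment, and 1968 had an unadjusted p under 0.05. TGFB2 differed by 0.66 ± 0.22 (SE, log2, adjusted p = 0.307, limma), with treated lineages from 6.88 to 7.90 and DMSO lineages from 6.62 to 6.92, which overlapped. The other 4 tested members did not pass either.

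The course of INHBA was shared by both arms at first. At time point 1 the 6 treated libraries ranged from 1.60 to 11.7 (median 2.70) and the 3 DMSO libraries held 3.12, 4.64 and 7.25, while the parental library held 9.89. Treated values then ranged from 6.60 to 18.6 at time point 3, 3.59 to 98.7 at time point 4 and 36.8 to 95.8 at time point 8 (median 66.6). DMSO libraries reached 49.9 in R8 at time point 7, held 5.71 and 8.01 at time point 10, and lay between 1.43 and 21.0 in R9 from time point 4 on. The arms overlapped at time points 1, 4, 5, 6, 8 and 9. At time point 7 the only DMSO library (49.9) lay above the 5 treated ones (11.7 to 49.6). At time point 9 the treated libraries held 21.9, 68.1 and 851 and the DMSO libraries 6.53, 18.2 and 23.1, a difference of 2.87 on the log2 scale, or 1.39 without the late R1 library. At time point 10 the treated libraries held 21.5, 35.0 and 600.4, all above the DMSO pair, with a difference of 3.34, or 1.87 without the late R2 library. Of the other 5 tested members 0 passed at any single time point in limma. At an unadjusted p under 0.05 TGFB2 did at time points 9 and 10. At time point 10 TGFB2 was 168 and 191 in treated libraries and 5113 in the late R2 library, beside 126 and 144 in DMSO libraries. Over all genes 1.33% passed at time point 9, 0.0618% at time point 10, and 0% at each of time points 1, 4, 5, 6, 7 and 8, where 182 to 1475 genes had an unadjusted p under 0.05. The spread was pooled over the 72 libraries, so the 1 DMSO library of time point 7 is assumed to vary like the other groups.

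Over the time course, INHBA, TGFB2 and SKIL rose and TGFB3 fell in the treated lineages. The slope of INHBA was 0.49 ± 0.079 (SE, log2 per time point, adjusted p = 0.00159). It was positive in 7 of 7 treated lineages, from 0.11 in R5 to 0.76 in R1 and R2. R5 was the only treated lineage without a library at time point 1, so its slopes start at time point 3. TGFB2 rose by 0.35 ± 0.060 (adjusted p = 0.00211, 7 of 7 lineages positive). SKIL rose by 0.067 ± 0.018 (adjusted p = 0.0127, 6 of 7 positive). TGFB3 fell by 0.094 ± 0.023 (adjusted p = 0.00847, negative in 7 of 7). SMAD7 had a slope of 0.085 ± 0.033 (adjusted p = 0.0621) with 6 of 7 lineages positive, and TGFB1 of 0.0064 ± 0.011 (adjusted p = 0.672) with 4 of 7 positive. These p-values are from limma with Benjamini-Hochberg adjustment over all tested genes. So 4 of 6 members passed, where 39.1% of all tested genes did, 2367 upwards and 3326 downwards. INHBA is among the 4, and it was chosen by the arm contrast in these same libraries. Its slope p-value is therefore not independent of that choice. The median slope was 0.076 over the 6 members and -0.0076 over all tested genes.

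All 4 slope calls were lost when time point 1 was left out, at which point 8.12% of all genes still passed. INHBA then had a slope of 0.43 (adjusted p = 0.0586), TGFB2 of 0.36 (adjusted p = 0.0766), TGFB3 of -0.093 (adjusted p = 0.0983) and SKIL of 0.046 (adjusted p = 0.30), all in limma. Without the 2 late treated libraries the same 4 genes passed, but TGFB3 fell by only 0.056 and SKIL rose by only 0.039. SMAD7 passed when R5, the lineage with a negative slope of -0.14, was left out (0.12, adjusted p = 0.00194, limma). The mitochondrially encoded genes, read here for RNA quality, moved with time as well: 13 of 13 fell in treated lineages and 13 of 13 in DMSO lineages, and their part in these slopes was not tested.

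In DMSO lineages 0 of 6 members passed, against 12.3% of all tested genes, and at an unadjusted p under 0.05 only TGFB3 did. This count depends on the spread, which is shared with the treated slopes. Without the 2 late treated libraries, which leaves the DMSO slopes as they are, 1 member passed upwards and 1 downwards in limma. The DMSO slopes had the same signs as the treated ones for INHBA (0.15 ± 0.12, adjusted p = 0.393), TGFB2 (0.15 ± 0.092, adjusted p = 0.274) and TGFB3 (-0.10 ± 0.034, adjusted p = 0.0656), each in 3 of 3 lineages (limma). TGFB1 had slopes of 0.080 in R9, 0.040 in R10 and -0.019 in R8. The difference of the slopes between arms was 0.34 ± 0.14 for INHBA (adjusted p = 0.515) and 0.20 ± 0.11 for TGFB2 (adjusted p = 0.571), and limma called 0 of 14565 genes (0%, with 1373 at an unadjusted p under 0.05). A different course under drug was therefore not shown for any member. Leaving out the 4 late DMSO libraries (R9 at time points 8 and 9, R10 at 9 and 10), TGFB2 passed in DMSO lineages with a slope of 0.33 (adjusted p = 0.0372, limma).

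**Figure D2:**
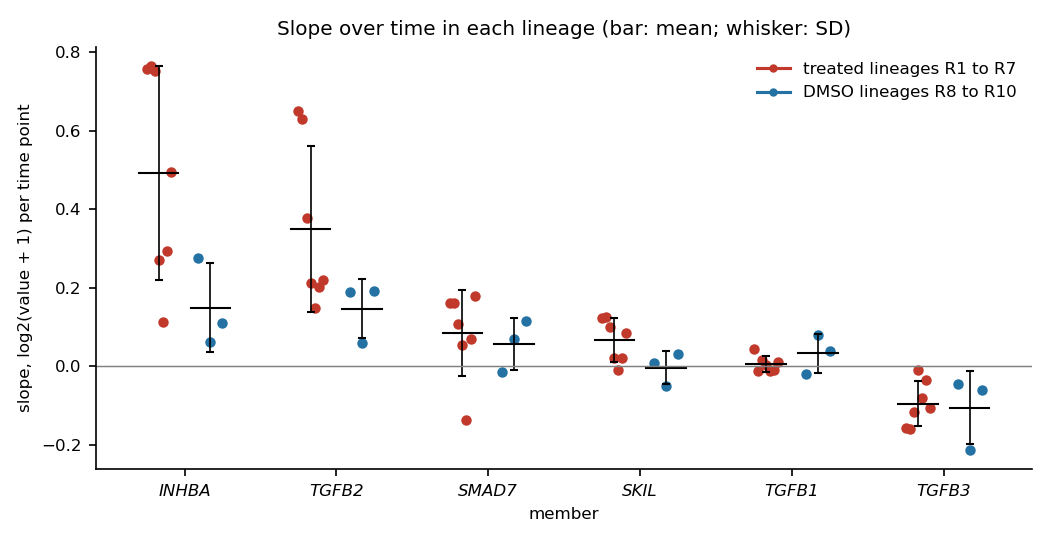
Slope of each tested member in each lineage (vertical axis, log2 of the normalized value plus 1 per time point), with treated lineages in red, DMSO lineages in blue, a bar at the mean and a whisker of 1 SD. All 7 treated slopes are positive for INHBA and TGFB2 and negative for TGFB3, and the DMSO slopes of these genes lie on the same side of 0.

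TGFB1, the ligand with the highest level per kilobase, had the treated slope nearest to 0 of the 6 tested members. Treated libraries ranged from 1320 to 2286 (median 1897) and DMSO libraries from 1414 to 2579 (median 1955), and the parental library held 1384. In the treated arm its median was lowest at time point 4, after EC (1320 to 1931, median 1628). It was highest at time point 7, after VDC (2049 to 2286, median 2244). These are the extremes of all time points. Values after VDC at time point 3 (1436 to 2192) and after EC at time point 8 (1820 to 2229) overlapped. Libraries taken after VDC exceeded those after EC by 0.19 ± 0.051 (SE, log2, adjusted p = 0.0861, limma with lineage as a block), so it did not pass. SKIL (-0.38 ± 0.16, adjusted p = 0.255) and SMAD7 (-0.47 ± 0.26, adjusted p = 0.387) had values on the EC side without passing in limma, as did INHBA (-0.49 ± 0.40, adjusted p = 0.586). The other 2 tested members did not pass. The call rate over all genes was 0%, with 2118 genes at an unadjusted p under 0.05. For the difference of this drug effect between arms it was 0% too, with 685 at an unadjusted p under 0.05. DMSO libraries, which met no drug, held TGFB1 at 1529 and 1629 at time point 4 and at 2324 in R8 at time point 7.

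TGFB2 and TGFB3 had opposite courses. TGFB2 held 35.6 to 142 at time point 1 in treated libraries and 136 to 330 at time point 8 (median 258), whereas the parental library held 109. TGFB3 held 751 to 1084 at time point 1 (median 967) and 615 to 808 at time point 8 (median 684), with 761 in the parental library. DMSO libraries held TGFB2 at 37.8, 40.1 and 56.7 and TGFB3 at 917, 918 and 1028 at time point 1. By time point 8 they held TGFB2 at 107, 168 and 182 and TGFB3 at 356, 634 and 812. The lowest DMSO values of TGFB3 were 356 and 290 in R9 at time points 8 and 9, where TGFB2 was not raised (107 and 50.8) and the summed fibroblast markers were at 8230 and 5832, against a DMSO median of 21802. At time point 9 TGFB2 was 149, 294 and 5460 in treated and 50.8, 100.5 and 185 in DMSO libraries, a difference of 2.65 ± 0.77 (SE, log2, adjusted p = 0.0604, limma). It passed without treated R2 (2.65, adjusted p = 0.0274), R4 (3.68, 0.0416) or R5 (3.19, 0.0267), or without DMSO R8 (3.10, 0.0221). Without treated R1, whose late library held 5460, the difference was 1.08 (adjusted p = 0.508), and without both late treated libraries it was 1.08 (adjusted p = 0.369, limma).

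The most extreme values of the ligands came from 2 libraries of different treated lineages. The last libraries of R1 and R2 held INHBA at 851 and 600.4, where the other 47 treated libraries ranged from 1.60 to 104 (median 23.8). TGFB2 was at 5460 and 5113 (others 35.6 to 445, median 144). SKIL was at 2818 and 2379 (others 576 to 2267). TGFB3 went the other way, with 235 and 260 (others 553 to 1084). TGFB1 (2107 and 1893), SMAD7 (310 and 337), FST (8.48 and 11.3) and INHBB (2.44 and 0.801) stayed inside the range of the other libraries.

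Above the range of all other treated libraries in both of these lay 3 of 6 tested members, and below it 1 of 6. Over all tested genes 9.81% lay above and 12.5% below, and the libraries are set apart here because they differ, so this is a description. Of the receptors, TGFBR1, the type I TGF-beta receptor, was at 6860 and 10117 (others 480 to 1469) and TGFBR2, its type II partner, at 1515 and 1576 (others 228 to 827). The coreceptor TGFBR3, which presents TGFB2 to the receptors, was at 163 and 136 (others 265 to 1722). The activin receptor ACVR2A was at 150 and 131 (others 248 to 692). FSTL3, a follistatin relative that binds activin, was at 2767 and 2616 (others 173 to 666), in contrast to FST itself. PCSK6 (633 and 696, others 9.94 to 86.4) and FURIN (5081 and 5064, others 1623 to 2614), proteases that cleave the ligand precursors, were high as well, as was ITGB8, an integrin chain that activates latent TGF-beta (566 and 463, others 3.37 to 114). Of the genes commonly raised by TGF-beta or activin, 6 of 17 lay above the range, among them FN1, COL1A1 and BHLHE40, and TIMP3 lay below it. FN1 was the highest value of its column in both libraries. The summed fibroblast markers were 51454 and 63154 (treated median 23065) and the summed Ewing sarcoma markers 14299 and 11677 (treated median 17303), with NR0B1 and STEAP1 below the range of the others. Of the 7 tested fibroblast markers, COL1A2 (31434 and 35961, others up to 22787) and COL3A1 (16338 and 22787, others up to 9663) lay above the range and made up most of the fibroblast sum. PDGFRB (2090 and 2574, others up to 2005) lay above it too. THY1 (1300 and 1386, median of the others 605) was inside the range, above the median. LUM (144 and 197, median 626) and FAP (150 and 248, median 294) were inside it, below the median. PDGFRA was at 0.0159 and 1.38 (others 0.0256 to 48.2). Of the epithelial markers, CLDN4, the only one tested, lay above the range (52.3 and 62.9, others 9.29 to 40.5), and EPCAM was at 0.0159 and 0.0293. The summed mitochondrially encoded genes were 58253 and 47822 (treated median 117456). The part of each of these in the ligand values was not tested, and in bulk RNA a change in the cells present and a change within cells cannot be told apart.

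**Figure D3:**
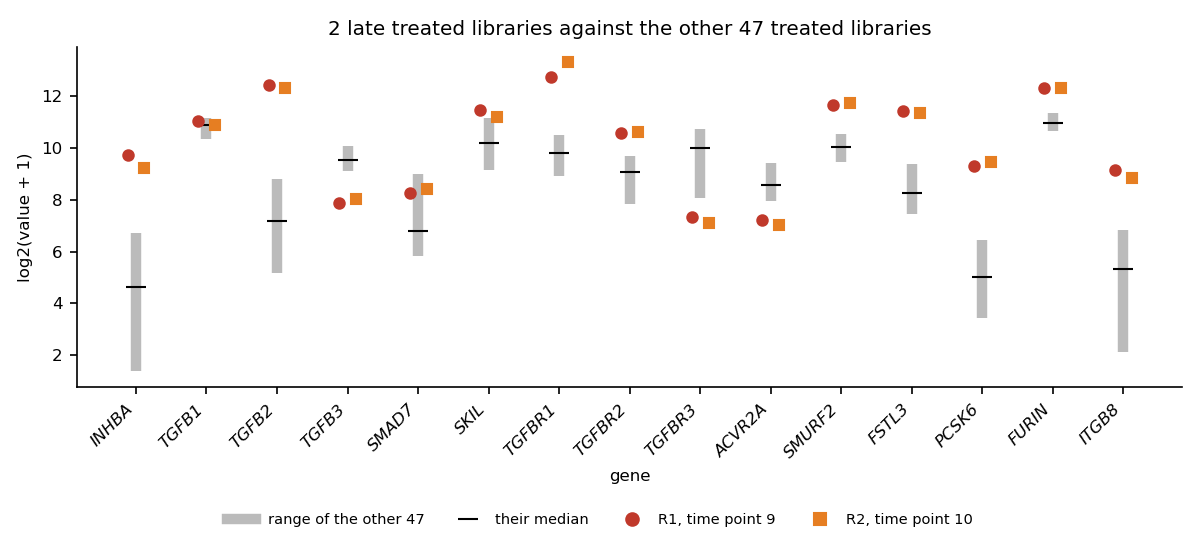
Log2 of the normalized value plus 1 (vertical axis) for tested members and pathway genes (horizontal axis) in the last libraries of R1 (circles, time point 9) and R2 (squares, time point 10), beside the range (grey) and median (line) of the other 47 treated libraries. INHBA, TGFB2, SKIL and TGFBR1 lie above the grey range and TGFB3, TGFBR3 and ACVR2A below it, while TGFB1 and SMAD7 lie inside.

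The feedback genes SMAD7, SKIL and FST were high in many of the same libraries, and these were not the late ones alone. SMAD7 and SKIL shared 8 of their 10 highest libraries of 73, FST and SKIL shared 7, and FST and SMAD7 shared 5. The treated R5 at time point 5 held SMAD7 at 512, SKIL at 2246 and FST at 54.3. DMSO R10 at the same time point held 425, 2289 and 66.5. Treated R1 at time point 6 held 364, 2003 and 53.0, and treated R7 at time point 4 held 398, 2149 and 39.5. The medians over 73 libraries were 122, 1185 and 4.61, so these libraries lay well above the middle for all 3 genes, in both arms. Treated R6 at time point 4 was high for SMAD7 (423) and SKIL (2267) but not for FST (5.79).

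SMAD7, SKIL and INHBA went the same way in most treated lineages at some steps between neighbouring samplings and not at others. From time point 3 to 4, SMAD7, SKIL and INHBA were each higher in 5 of the 6 lineages sampled at both, by a median of 1.37, 1.32 and 1.97 on the log2 scale. R1 was the lineage that went down, with SMAD7 at 63.0, SKIL at 748 and INHBA at 3.59 at time point 4. From time point 4 to 5 each was higher in 2 of 7 lineages only. From time point 5 to 6 INHBA was higher in 4 of 6, SMAD7 in 3 and SKIL in 2. From time point 6 to 7 INHBA was higher in 3 of 4, and SMAD7 and SKIL in 1 each. From time point 7 to 8 all 3 genes were higher in 4 of 4 lineages. In DMSO lineages, all 3 genes were higher in 0 of 2 from time point 4 to 5, where most treated lineages also went down. From time point 5 to 6, INHBA was higher in 3 of 3 DMSO lineages, SKIL in 2 and SMAD7 in 1. For the next 2 steps only R8 was sampled. There INHBA and SMAD7 rose and SKIL fell from time point 6 to 7, and each went the other way from 7 to 8. From time point 8 to 9, SMAD7 and INHBA were higher in 0 of 3 DMSO lineages and SKIL in 1 of 3. These counts are descriptions of single steps and were not tested.

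**Figure D4:**
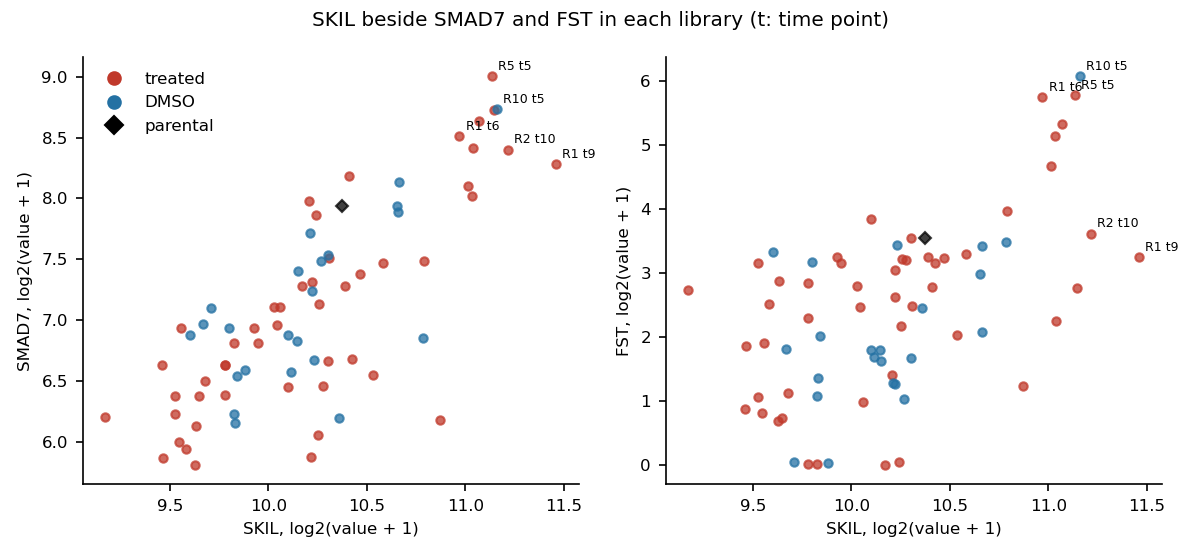
Each point is a library, with SKIL on the horizontal axis and SMAD7 (left) or FST (right) on the vertical axis, all as log2 of the normalized value plus 1, coloured by arm (parental: diamond). Libraries with the highest SMAD7 and FST also have high SKIL, in treated R5 and R1 and in DMSO R10, while the last libraries of R1 and R2 (t9 and t10) are highest for SKIL and not for FST.

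With the mean of each arm and time point taken off, the members split into a group that varied together and a pair that did not join it. Over 72 libraries, the Spearman correlation was 0.70 for INHBA and TGFB2, 0.67 for SMAD7 and SKIL, 0.56 for INHBA and SKIL, 0.55 for TGFB2 and SMAD7, 0.54 for TGFB2 and SKIL and 0.42 for INHBA and SMAD7. Without the 2 late treated libraries these were 0.62, 0.60, 0.52, 0.46, 0.48 and 0.29 over 70 libraries. TGFB1 and TGFB3 had correlations with these 4 genes between -0.31 and 0.10, and between -0.32 and 0.17 without those 2 libraries. Libraries of a lineage come from 1 culture and share its history and normalization, so the values describe the set and carry no p. By the same measure the genes most like TGFB2 were TGFBR1 (0.82), FNDC3B (0.81) and DSEL (0.77). TGFBR1 kept 0.74 without the 2 late treated libraries. Most like INHBA were GFRA1 (0.79), RAI14 (0.78) and DOCK9 (0.76). Most like SMAD7 were FERMT2 (0.88), EMILIN2 (0.87) and UGP2 (0.85), and most like SKIL were CRIM1 (0.79), CDK17 (0.79) and FBN1 (0.76). TGFB1 was most like G6PC3 (0.65) and TGFB3 most like ZDHHC15 (0.65).

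FST and INHBB, fitted without the filter on low values, did not pass in any comparison. FST was listed at the lowest value of its library in 6 of 73 libraries, with treated values from 0.00158 to 54.3 (median 5.79) and DMSO values from 0.0167 to 66.5 (median 2.49). Its treated slope was 0.23 ± 0.073 (SE, log2, adjusted p = 0.0681, limma), beside a DMSO slope of -0.039 (adjusted p = 0.882, limma). INHBB had a treated slope of 0.12 ± 0.039 (adjusted p = 0.0774, limma). At these levels a library may hold few reads of either gene, and the depth that would set the error is unknown.

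The other genes of the pathway moved in the treated lineages as follows, all by the slope in limma with Benjamini-Hochberg adjustment. The share of all tested genes that passed was 39.1% in treated lineages and 12.3% in DMSO lineages, and without time point 1 it was 8.12% and 0.0618%. Of the 17 tested genes commonly raised by TGF-beta or activin, 13 rose and 0 fell, with a median slope of 0.21. BHLHE40, a transcription factor, rose by 0.56 (adjusted p = 0.00293), CCN2, a matricellular protein, by 0.45 (adjusted p = 0.00242) and TGFBI by 0.41 (adjusted p = 0.0115). In DMSO lineages 5 of the 17 rose, with the same median of 0.21, among them BHLHE40 (0.64) and ACTA2 (0.35). Without time point 1, 2 of the 17 passed in treated lineages and 0 in DMSO lineages. Of 16 tested genes for ligand processing, latency and trapping, 8 rose, among them ITGB8 (0.40), THBS1 (0.33), which activates latent TGF-beta, LRRC32 (0.31), which tethers it at the cell surface, and PCSK6 (0.24). Without time point 1, 0 of these 16 passed.

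Of the 12 tested receptors, ACVRL1 (0.25), TGFBR1 (0.16) and TGFBR2 (0.15) rose and ACVR2B (-0.062) fell. These 4 of 12 stand beside 39.1% of all tested genes, and without time point 1 none of them passed. TGFBR2 also rose in DMSO lineages (0.15, adjusted p = 0.0334, limma). Of 16 SMAD proteins and nuclear regulators, the ubiquitin ligase SMURF2 rose (0.10) and its relative SMURF1 fell (-0.038), and neither passed without time point 1. SMURF2 was also higher in treated libraries at time point 9 (0.85 ± 0.23, SE, log2, adjusted p = 0.0430, limma), but by 0.39 without the 2 late treated libraries, which did not pass (adjusted p = 0.253). Of the 7 other tested ligands, INHBE (0.49) and GDF15 (0.30) rose, and INHA (-0.19), the inhibin alpha subunit, GDF11 (-0.083) and AMH (-0.082) fell. Of these 7, GDF15 (0.21) and GDF11 (-0.058) did not pass without the 2 late treated libraries, and without time point 1 only INHBE did. INHBE (0.53), GDF15 (0.74) and INHA (-0.26) moved the same way in DMSO lineages, where 0 rose and 1 fell without the 4 late DMSO libraries and 0 passed without time point 1. Of 6 tested genes commonly raised by BMP, MSX2 (0.19) rose and the ID genes did not pass. MSX2 was lost without the 2 late treated libraries (0.15, adjusted p = 0.0656), without the 4 late DMSO libraries and without time point 1. Among the Ewing sarcoma markers, LIPI, STEAP1 and PRKCB fell, and among the fibroblast markers THY1 (0.19) and COL3A1 (0.12) rose in treated lineages. Without time point 1, 0 of the 7 fibroblast markers and 1 of the 5 Ewing sarcoma markers (LIPI) passed, and without the 2 late treated libraries neither STEAP1 nor COL3A1 did, although 2 fibroblast markers still passed. The part of these changes in the slopes of the members was not tested.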

How the data were processed

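Per the labels' protocols, a Qiagen AllPrep kit was used for extraction and STAR for alignment and counting. STAR, featureCounts and GRCh38 are named in the submitters' processing notes, with no versions. The deposited signal values are quantile-normalized counts, which the authors made by steps not given in the sources used here. Columns share a total within an arm, so levels between arms rest on that scaling, and depth is unknown.

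Log2(value + 1) (pseudocount 1) was taken for genes averaging at least 10 (14565) and fitted in limma 3.58.1 (trend, R 4.3.3, data.table version 1.17.8), with Benjamini-Hochberg adjustment over all of them and a call at an adjusted p under 0.05. Arms were compared on 7 and 3 lineage values adjusted for time point, slopes on least squares slopes per lineage with 1 spread for both arms, and single time points and VDC against EC on libraries, the latter with lineage as a block. At single time points libraries of a lineage were treated as independent. By the labels, a lineage is 1 culture sampled repeatedly. Only the p-values of arms and slopes measure the spread between these cultures. Those of single time points measure the spread between libraries, and those of VDC against EC the spread between libraries within lineages. Plots used matplotlib 3.10.9 (Python 3.11.15). The functions were tested on simulated data. The members and lists were chosen with earlier results of these data known. All 8 members are named. Of each pathway list, members past the threshold were named, up to 4 by size in each direction. 1 gene this rule chose entered the fits and counts but is not reported here. Likeness was the Spearman correlation after removing the mean of each arm and time point. Gene positions are from GENCODE v29. Alternatives covered pseudocount 5, no filter, joint normalization, libraries or lineages left out, no time point 1 and the lineage block.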

Additional observations from a re-analysis of the deposited data

Results flagged for a closer look

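Single libraries far from the others of their time point, by the gap to the nearest value as a share of the range, appeared in 13 of the 56 groups of treated libraries with 5 to 7 values. R1 at time point 1 lay above the other 5 treated libraries for 4 members: INHBA (11.7), TGFB2 (142), SMAD7 (232) and SKIL (1209). The parental library held 9.89, 109, 245 and 1326 for the same genes, and over all tested genes R1 at time point 1 was nearer to it (root mean square log2 difference 0.540) than the other 8 libraries of time point 1 were (0.666 to 0.773). R4 at time point 1 was high for FST (4.72), and R1 at time point 3 for SKIL (1875).

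R5 lay apart at 2 time points. At time point 5 its FST value was 54.3, and at time point 7 its INHBA (11.7) and TGFB1 (2049) values were the lowest. Its SMAD7 slope of -0.14 stood apart from the other 6 treated slopes and, unlike them, includes no library of time point 1. The remaining cases were INHBB in R6 at time point 4 (2.85), TGFB1 in R1 at time point 6 (1504.5), TGFB2 in R7 at time point 5 (445) and FST in R4 at time point 8 (13.4). In all, 14 of 68 groups had such a case, lineage levels and slopes included. The cutoffs of this rule assume normal values, whereas library values were taken untransformed and the groups share libraries. No chance rate is therefore given.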

How the results depend on the processing

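The count of members that passed in treated slopes was 4 as reported, 0 without time point 1, 0 without time point 1 and the 2 late treated libraries, 3 without all 6 late libraries, and 4 to 5 when 1 lineage was left out. For DMSO slopes it was 0 as reported, 1 without the 4 late DMSO libraries, 2 without the 2 late treated libraries, 1 without all 6 late libraries, and 0 to 2 when 1 lineage was left out (2, TGFB1 and TGFB3, without DMSO R8). At time point 9 it was 0 to 1 when 1 lineage was left out. Over all time points INHBA, chosen by this contrast, is not counted, and 0 of the other members passed when 1 lineage was left out. In the slope counts INHBA is included, although its choice rests on the same libraries. Without DMSO R8, 1357 of all genes or 9.32% passed over all time points. SKIL reversed to a treated slope of -0.0022 without time point 1 and the 2 late treated libraries, and TGFB2 to a slope difference of -0.084 without the 6 late libraries. The cause was not tested. Leaving out the late libraries in those combinations was chosen after seeing the data. With no replicate block for VDC against EC, and with lineage as a random replicate block at single time points, the counts stayed at 0. Of the other values, 326 kept direction and side of the threshold, 11 newly passed and 8 no longer passed. Depth, unknown here, limits INHBB and FST most.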
